A study of Oryza sativa with 2 samples.

Results

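The genes described here encode enzymes of the Calvin cycle in rice, together with Rubisco activase, and were chosen as a list of 10 locus IDs with an enzyme name for each. The 9 of these IDs that have a row in both of the tables used here, of 37896 rows each, were analysed. LOC_Os11g47970, given as Rubisco activase, was not analysed here. The enzyme names come from the list, since the tables hold IDs alone, and 0 of the 10 IDs matched an entry of the supplied RefSeq gene table. Poly(A) RNA was sequenced in 2 libraries from the whole plant of the wild-type indica cultivar 93-11 at 3 weeks of age, grown in Yoshida nutrient solution with 10 h of light and 14 h of dark a day. The libraries are replicates 1 and 2 of a single group without a treatment, a mutant or another cultivar. The labels do not say whether they came from separate plants, and their spread may then be technical in part.

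The Calvin cycle turns CO2 into sugar in the chloroplast stroma. Rubisco adds CO2 to ribulose bisphosphate, and Rubisco activase removes inhibitory sugar phosphates from its active site. The product, phosphoglycerate, is then reduced to triose phosphate with ATP and NADPH from the light reactions, and most of the triose phosphate is used to rebuild ribulose bisphosphate. Several of the enzymes are switched on in the light through thioredoxin. In leaves the nuclear genes for these enzymes are among the well expressed genes of green tissue, and their products are imported into the chloroplast.

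All 9 genes stood high in the seedling transcriptome, between a mean of 157.7 FPKM for phosphoribulokinase and 1316 FPKM for the chloroplast aldolase. FPKM is the number of fragments set against transcript length and the total of mapped fragments, so levels can be set side by side between genes. Each of the 9 reached 100 FPKM in both libraries, as did 2.15% of all loci, and each was detected at 1 FPKM or more in both, as were 53.1% of all loci. By mean level they ranked from 49 to 553 among all rows, which put them between the 98.5 and 99.9 percentiles. Against the median locus, at 1.77 FPKM in replicate 1 and at 2.09 in replicate 2, they stood 107.0 to 938.8 times higher in replicate 1 and 59.5 to 467.5 times higher in replicate 2. In whole seedlings, fewer green cells and less RNA of a gene per green cell cannot be told apart.

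**Figure D1:**
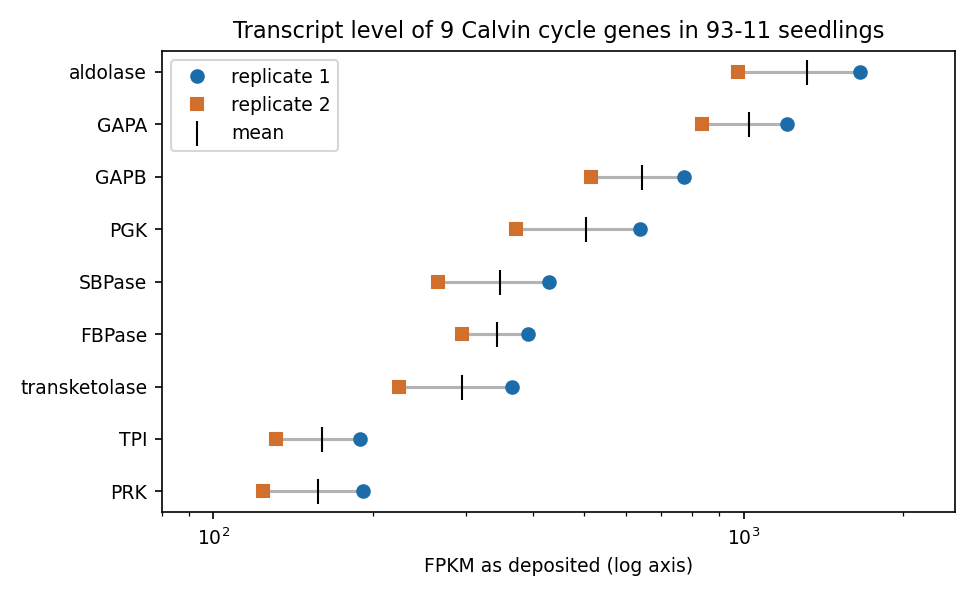
FPKM as deposited (horizontal log axis) of the 9 analysed genes, ordered from the highest mean at the top, with a circle for replicate 1, a square for replicate 2 and a tick for their mean. Every circle lies to the right of its square, and the levels run from 124.1 FPKM for PRK in replicate 2 to 1658 FPKM for aldolase in replicate 1.

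The reduction phase was represented by 3 genes, which held 44.8% of the summed FPKM of the 9 genes in replicate 1 and 46.1% in replicate 2. Phosphoglycerate kinase (PGK, LOC_Os05g41640 on chromosome 5) phosphorylates phosphoglycerate with ATP. It stood at 636.9 FPKM in replicate 1 and at 372.1 in replicate 2, with a mean of 504.5 ± 187.2 FPKM (SD, n = 2). Replicate 1 was the higher library, by 1.71-fold as deposited, the widest gap between the libraries among the 9 genes. The chloroplast glyceraldehyde phosphate dehydrogenase, which carries out the reduction itself with NADPH, is built from the subunits GAPA and GAPB. GAPB has a C-terminal extension, absent from GAPA, through which the enzyme is regulated by light.

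GAPA (LOC_Os04g38600 on chromosome 4) stood at 1209 FPKM in replicate 1 and at 835.9 in replicate 2, with a mean of 1022 ± 263.9 FPKM. GAPB (LOC_Os03g03720 on chromosome 3) stood at 770.7 FPKM in replicate 1 and at 516.2 in replicate 2, with a mean of 643.5 ± 180.0 FPKM. Both subunit genes were higher in replicate 1, and GAPA was above GAPB in each library. The ratio of GAPA over GAPB was 1.57 in replicate 1 and 1.62 in replicate 2, or 0.67 ± 0.03 on the log2 scale (SD, n = 2). The ratio within a library does not depend on how the libraries are scaled, and the GAPA excess was larger than its spread between the libraries. Together the subunit genes made up 33.9% of the summed FPKM of the 9 genes in replicate 1 and 36.2% in replicate 2.

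The other 6 genes serve the regeneration of ribulose bisphosphate. Of their enzymes, triose phosphate isomerase, aldolase and fructose bisphosphatase also lie on the way from triose phosphate to starch. Chloroplast triose phosphate isomerase (TPI, LOC_Os09g36450 on chromosome 9) interconverts the triose phosphates. It stood at 188.9 FPKM in replicate 1 and at 131.2 in replicate 2, with a mean of 160.1 ± 40.8 FPKM. The chloroplast aldolase (LOC_Os11g07020 on chromosome 11) joins triose phosphate to another sugar phosphate and makes the substrates of both bisphosphatases. It stood at 1658 FPKM in replicate 1 and at 975.2 in replicate 2, with a mean of 1316 ± 482.5 FPKM. Aldolase was the most abundant of the 9 in each library and TPI was near the bottom of the set in each. As the genes listed for consecutive steps, they stood 8.77-fold apart in replicate 1 and 7.43-fold apart in replicate 2. Other genes for the same enzymes were not described. Aldolase ranked 3 among the 2519 loci whose IDs carry the code of chromosome 11, and GAPA ranked 3 among the 3317 of chromosome 4.

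Fructose bisphosphatase (FBPase) and sedoheptulose bisphosphatase (SBPase) remove a phosphate from the products of aldolase in steps that are irreversible in the cell, and both are activated through thioredoxin. SBPase (LOC_Os04g16680 on chromosome 4) stood at 430.3 FPKM in replicate 1 and at 265.7 in replicate 2, with a mean of 348.0 ± 116.4 FPKM. Chloroplast FBPase (LOC_Os03g16050 on chromosome 3) stood at 392.9 FPKM in replicate 1 and at 294.1 in replicate 2, with a mean of 343.5 ± 69.9 FPKM. The bisphosphatase genes could not be put in order. SBPase over FBPase was 1.10 in replicate 1 and 0.904 in replicate 2, so the higher gene changed with the library. FBPase also had the narrowest gap between the libraries among the 9 genes, 1.34-fold as deposited.

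Transketolase (LOC_Os06g04270 on chromosome 6) moves carbon units between sugar phosphates in the cycle and also works in the pentose phosphate pathway. It stood at 366.0 FPKM in replicate 1 and at 223.6 in replicate 2, with a mean of 294.8 ± 100.7 FPKM. Phosphoribulokinase (PRK, LOC_Os02g47020 on chromosome 2) makes ribulose bisphosphate, the acceptor of CO2. It stood at 191.3 FPKM in replicate 1 and at 124.1 in replicate 2, with a mean of 157.7 ± 47.5 FPKM. PRK and TPI were the least abundant of the 9 and also changed places, with TPI over PRK at 0.988 in replicate 1 and 1.06 in replicate 2. Transketolase lay above both of them in each library.

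The order of levels was therefore aldolase, GAPA, GAPB and PGK, followed by SBPase and FBPase without an order between them. Transketolase came next, then TPI and PRK without an order between them. FBPase lay close above transketolase, at 1.07 times its level in replicate 1 and 1.32 times in replicate 2. Of the 36 pairs of genes, 34 had the same order in both libraries, and the exceptions were SBPase with FBPase and TPI with PRK. Pairs of other loci were not counted, so this order is not shown to be steadier than theirs. As deposited, 0 of the 8 neighbouring pairs in this order had means further apart than the sum of their SDs, and 23 of the 36 pairs did. With both libraries scaled to the same summed FPKM, 2 of the 8 neighbouring pairs and 27 of the 36 pairs did. The SDs share the gap between the libraries, which was in the same direction for each gene, so ratios within a library set the order apart more finely than the means do.

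**Figure D2:**
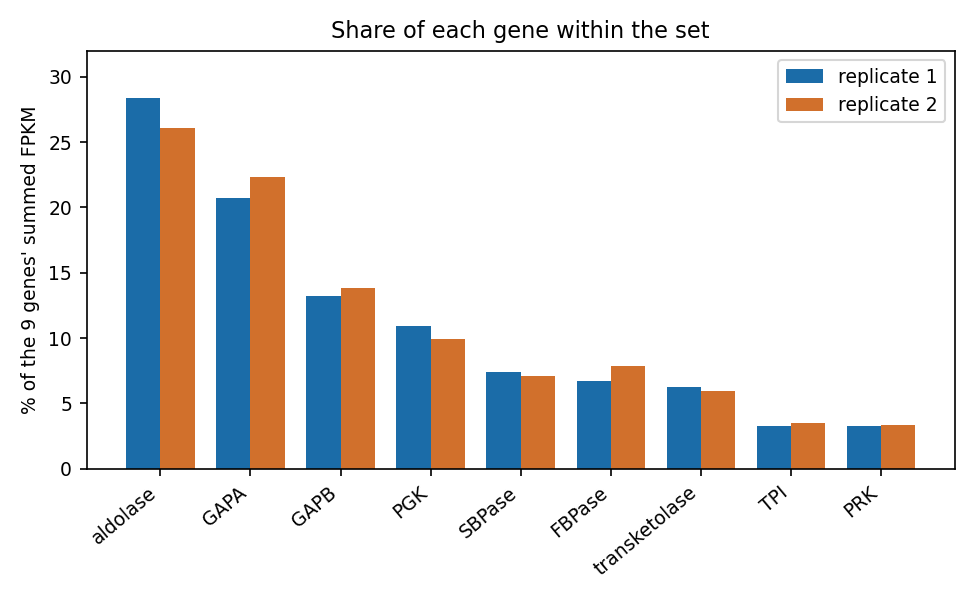
Share of each gene in the summed FPKM of the 9 genes (vertical axis, percent, from 0), with the left bar for replicate 1 and the right bar for replicate 2 and no error bars, since each bar is 1 library. Aldolase took 28.4% in replicate 1 and 26.1% in replicate 2, and PRK took 3.27% and 3.32%.

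The proportions among the 9 genes changed little between the libraries in comparison with the range of their levels. The highest gene was 8.77 times the lowest in replicate 1 and 7.86 times in replicate 2. Over the 36 pairs, the log2 ratio of 2 genes shifted between the libraries by a median of 0.14, and by less than 0.2 for 27 pairs. The shifts of pairs of other loci were not measured. The largest shift was that of PGK over FBPase, 1.62 in replicate 1 and 1.27 in replicate 2. The smallest was that of GAPA over TPI, 6.40 in replicate 1 and 6.37 in replicate 2. Within the set, the shares of aldolase, PGK, transketolase and SBPase were higher in replicate 1, and those of GAPA, GAPB, FBPase, TPI and PRK were higher in replicate 2. These shares have a single value per library and no test.

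The 9 genes together held 0.788% of all FPKM in replicate 1 and 0.559% in replicate 2, a mean of 0.674% ± 0.162 (SD, n = 2). Summed over the 9 genes, the level came to 5844 FPKM in replicate 1 and to 3738 in replicate 2. All 9 genes were higher in replicate 1 as deposited, by 1.34-fold to 1.71-fold with a median of 1.54-fold. Among all 10366 loci whose mean reached 10 FPKM, 60.7% lay higher in replicate 1 as deposited. Scaling both libraries to the same summed FPKM shifts every log2 ratio of FPKM above 0 (replicate 1 over replicate 2) by -0.15. The shift is smaller where 1 is added to FPKM, most so at low levels. After the scaling 43.5% of these loci were higher in replicate 1. The 9 genes were each higher in replicate 1 after this scaling too, by 1.20-fold to 1.54-fold with a median of 1.39-fold, and also after scaling by the median of ratios, where 53.4% of the loci were.

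**Figure D3:**
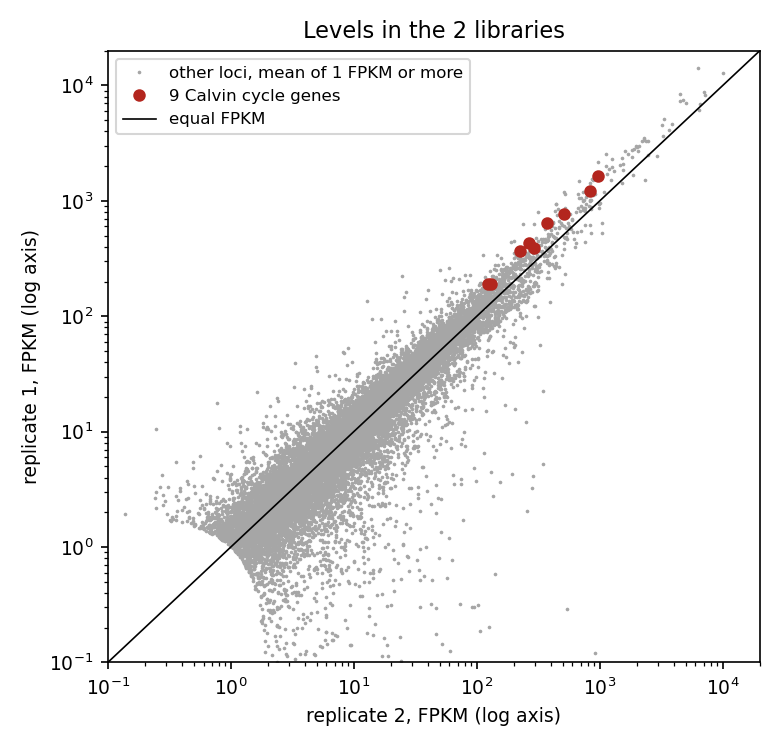
FPKM in replicate 2 (horizontal log axis) against FPKM in replicate 1 (vertical log axis), as deposited, for the 9 Calvin cycle genes (large points) and for 21211 of the 21402 other loci whose mean reached 1 FPKM, those at 0.1 FPKM or more in both libraries (small points). The 9 genes all lie above the line of equal FPKM, among the loci of high level.

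No gene of the set was called apart between the libraries. The call needs libraries over 2-fold apart in FPKM + 1 once scaled to the same total, and 0 of the 9 genes met it, against 6.52% of the 10366 loci whose mean reached 10 FPKM. With 9 genes, a count of 0 cannot be told apart from that share. At a limit of 1.5-fold, aldolase and PGK were called higher in replicate 1, 2 of 9 genes against 4.67% of those loci. As deposited, 5 of the 9 passed 1.5-fold in this direction, namely PGK, aldolase, transketolase, SBPase and PRK, against 8.44% of the loci. Each side of these differences is 1 library, so they carry no test.

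Set beside loci of like level, the 9 genes lay on the replicate 1 side and close to each other. The log2 ratio of replicate 1 over replicate 2, scaled to the same total, had a median of 0.47 over the 9 genes and lay between 0.27 for FBPase and 0.62 for PGK. The 496 other loci with means between those of PRK and aldolase had a median of 0.00, and 49.8% of them were higher in replicate 1. The middle 50% of these loci spanned 0.68 on the log2 scale, and the middle 50% of the 9 genes spanned 0.18. Between 74.8% and 94.4% of the loci of like level had a lower ratio than a gene of the set. Other groups of photosynthesis genes were not set beside them, so neither feature is shown to be particular to these 9 genes. The genes share the same pair of libraries, so they are not independent measures of the gap, and there is no further library to check it against.

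**Figure D4:**
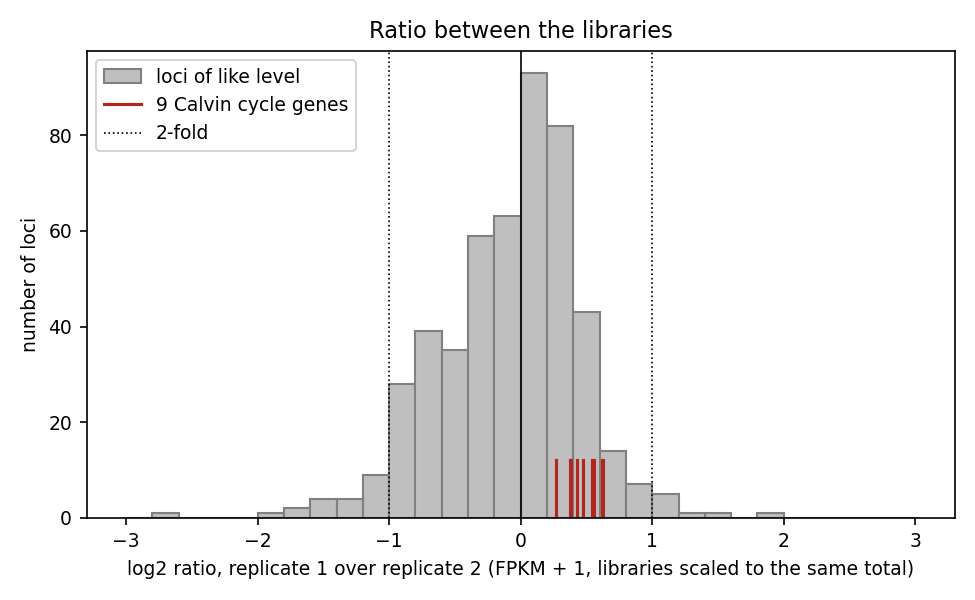
Histogram of the log2 ratio of replicate 1 over replicate 2 on FPKM + 1, with the libraries scaled to the same total (horizontal axis), over the 496 loci of like level (grey bars, number of loci), of which 4 lie beyond the drawn range. The short vertical lines are the 9 genes, all between 0.27 and 0.62 and inside the dotted lines that mark 2-fold.

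The IDs put the 9 genes on 7 chromosomes, with SBPase and GAPA on chromosome 4 and GAPB and FBPase on chromosome 3. The loci listed next in number on both sides of each gene were lower than it. Each of the 9 genes also lay above at least 98.5% of all rows, so a lower neighbour is the usual case. Of these 18 loci, 0 reached a mean of 100 FPKM, a level reached by 2.63% of all loci, and 6 had a mean under 1 FPKM, against 43.5% of all loci. With 18 loci, neither count can be told apart from its share over all loci. Their highest mean was 53.1 FPKM, beside transketolase, and their median was 5.40 FPKM, against 2.05 FPKM for all loci. SBPase stood between loci listed at 0 in both libraries, and 3 of the 18 loci were at 0 in both. Ranked by mean, all rows from 27971 to the last of the 37896 were at 0 in both libraries. Of the 8 next loci whose mean reached 10 FPKM, 4 were higher in replicate 1 as deposited, against 60.7% of all loci at that level. After scaling to the same total 3 of the 8 were, against 43.5%. With 8 loci, these counts cannot be told apart from the shares over all loci.

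Next in number to the ID given as Rubisco activase stood LOC_Os11g47980, at 1476 FPKM in replicate 1 and at 673.4 in replicate 2. Its mean of 1075 ± 567.7 FPKM lay between those of GAPA and aldolase, and it was 2.19-fold higher in replicate 1 as deposited, a wider gap than that of any of the 9 genes. No name is paired with this ID in the sources used here, and whether fragments of the Rubisco activase transcript were counted under it was not tested. Its values are therefore not part of any count or sum of the Calvin cycle genes.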

How the data were processed

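The authors deposited a table of locus IDs and FPKM per library, per the file headers. The submitters' processing notes name TopHat2 and Cufflinks, with no version. No source used here gives the genome build, the annotation or the filters. The sequenced depth is unknown, since FPKM holds no counts, so no counting interval is given. The members and lists were chosen with earlier results of these data known. The text names all listed genes, and a further locus only where it is next in number to a listed gene and bears on it. Levels are as deposited, with mean and SD over 2 libraries. Ratios between libraries use log2(FPKM + 1) after scaling to the same summed FPKM, which understates ratios of low loci. With 1 group there is no test. Gene names were sought in RefSeq for the Japonica assembly ASM3414082v1, with 39387 genes. Other genes of the pathway were not described, since no source used here pairs their names with these IDs. The calculation was tested on simulated data whose shifts were wider than the gaps seen in the listed genes. Shifts of the size of those gaps were not simulated. Python 3.11.15, numpy 2.4.6, pandas 2.3.3 and matplotlib 3.10.9 were used.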

Additional observations from a re-analysis of the deposited data

How the results depend on the processing

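No paired analysis was possible because the 2 libraries belong to the same group. Among loci at 1 FPKM or more in both libraries the median percentile was 99.0 instead of 99.5, and the percentile of each of the 9 genes was lower, with PRK lowest at 97.3. Without the 100 most abundant other loci the share of summed FPKM was 0.961%. The median log2 ratio between the libraries was 0.62 as deposited, a move larger than the SD of 0.12 over the 9 genes, 0.55 with the median of ratios and 0.47 with the other pseudocounts. The genes called higher in replicate 1 numbered 2 at 1.5-fold. In replicate 2 alone and in replicate 1 alone, the median level was 294.1 and 430.3 FPKM, the median percentile 99.4 and 99.6, the share 0.559% and 0.788%, and log2 of GAPA over GAPB 0.70 and 0.65. With 2 libraries, leaving 1 out cannot move a mean by more than their SD, so this is no check of stability. In replicate 2 alone the percentiles of GAPA, GAPB, SBPase and transketolase moved by more than their SD. The 9 genes were higher in replicate 1 under each scaling and pseudocount tried. The number of all loci called apart moved by more than 1.5 times with the fold limit and with the level minimum.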

Other observations

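The values of PRK and TPI were written with more than 6 characters in both tables, leaving out the decimal point and leading zeros. The same held for 21.9% of the 25982 loci above 0 in both, while the other 7 genes had 6 or fewer. Exponents were counted as characters, so for some loci this length is not a number of significant digits. No source used here says what this difference in notation stands for.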
